A study of Mus musculus with 6 samples.

Results

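Imprinted genes are transcribed mainly from the copy inherited from 1 parent. A fixed list of 43 of them, given by symbol, was followed here among the 47643 gene identifiers of an RNA-seq study of mouse sensory neurons, and each symbol matched 1 identifier. The genes lie in 17 clusters or single loci. Of the 43, 14 are known to be expressed from the maternal copy, 26 from the paternal copy, and 3 (Grb10, Gnas and Blcap) from either copy depending on isoform or tissue. The rule for the list uses no measured value. The study had 3 libraries from embryonic day 13 dorsal root ganglia treated with a lentivirus carrying a hairpin against Uhrf1 (shUHRF1) and 3 from ganglia treated with a control lentivirus (shControl). All 6 came from CD-1 mice, and the series describes the cells as uninjured neurons. The design asked how transcription differed after the knockdown. The labels give replicate numbers but not whether each number is a separate culture, so p-values rest on differences among the libraries that may be technical in origin.

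At an imprinted cluster, a control region carries DNA methylation on 1 parental copy only, set in the germ line and copied at each round of DNA replication. UHRF1 recognises DNA methylated on 1 strand and brings in the maintenance methyltransferase DNMT1, which restores the mark on the new strand. Many imprinted genes act in growth, placenta and brain, and several, such as Ndn, Magel2, Ube3a and Peg3, are known for roles in neurons. Total RNA was counted here without separating the parental copies, so a change in level cannot be assigned to either copy. Whether each listed gene is imprinted in these cells was likewise not measured.

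The libraries held 15599776 to 22382813 reads in genes. Uhrf1 had 2, 1 and 5 reads in the shUHRF1 libraries, against 8, 6 and 5 reads in the shControl libraries, so the targeted gene was barely detected in any library. Its mean was 0.13 ± 0.0981 CPM (read counts scaled to a fixed library size with TMM factors; SD, n = 3) in shUHRF1 and 0.364 ± 0.115 CPM (SD, n = 3) in shControl. The ranges overlapped in replicate 3, and p was 0.2 by exact permutation (two-sided), the smallest possible with these 6 libraries being 0.1. The listed genes took 0.714% to 0.912% of the reads in shUHRF1 and 0.738% to 0.859% in shControl.

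Imprinted genes moved in both directions. In RNA of whole cultures, fewer cells of a type and less RNA per cell cannot be told apart, and 12 of 13 tested fibroblast and mesenchyme markers and 9 of 10 tested Schwann cell and satellite glia markers were also called higher in shUHRF1. Many of these markers were near 0 in shControl and were tested only through their reads in shUHRF1. Of the 43 genes, 37 passed the expression filter and were tested, 6 were called higher in shUHRF1, 9 were called lower, and 22 were not called. A call means an adjusted p below 0.05 in edgeR's quasi-likelihood test, adjusted over all 15573 tested genes. Among all tested genes 24.0% were called, 11.6% higher and 12.4% lower. With upper-quartile factors the split was 2512 higher and 1378 lower over all genes, against 1807 and 1928 with TMM factors, and 6 and 8 among the imprinted genes. The genes called higher were Ddc, Zim1, Cdkn1c, Impact, Snhg14 and Blcap, and those called lower were Dlk1, Magel2, Mest, Nnat, Peg3, Ndn, Usp29, Igf2r and Zrsr1. The groups did not overlap in CPM for 21 of the 37, where they did not overlap for 44.0% of all tested genes. The median log2 fold change of shUHRF1 over shControl was -0.04 for the tested imprinted genes and 0.017 for all tested genes. A gene near 0 in shControl, such as Ddc, passed the filter only through its reads in shUHRF1 and had to differ, so these counts and medians describe the tested genes and not the whole list. Without shUHRF1 replicate 3, shControl replicate 1 or shControl replicate 3, 11, 11 and 10 imprinted genes were called. Among all tested genes those fits called 2171 of 15882, 2018 of 16484 and 1768 of 16166. In the library pairs numbered 1 and 3 alone 8 of 39 tested imprinted genes were called higher and 8 lower. Of all 15839 genes tested there, 1383 were called higher and 1688 lower. That selection was made after the data were seen, because the pair numbered 2 had the largest fractions of reads not assigned to a gene.

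**Figure D1:**
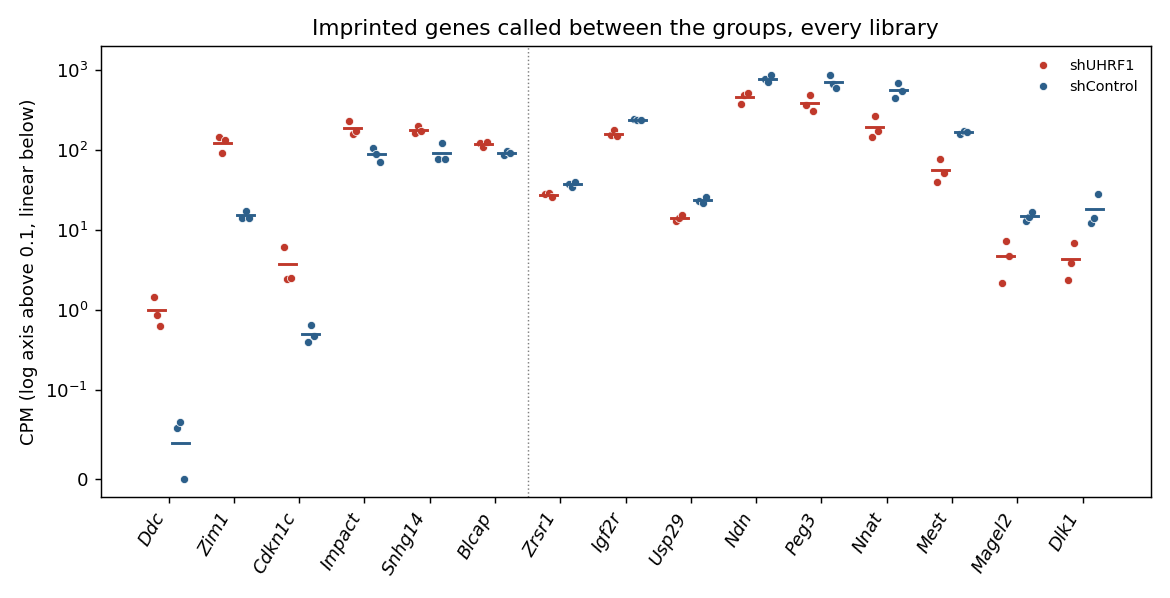
CPM of the 15 called imprinted genes in every library (log axis above 0.1 CPM, linear below); points are libraries and bars are group means, with shUHRF1 left of shControl for each gene. The 6 genes left of the dotted line were higher in shUHRF1 and the 9 to its right were lower, and for each of the 15 the groups do not overlap.

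The Peg3 cluster on proximal chromosome 7 held changes in opposite directions. Its maternally expressed zinc finger gene Zim1 rose 8.15-fold in shUHRF1, while its paternally expressed genes Peg3 and Usp29 fell. Zim1 (ENSMUSG00000002266.16, chromosome 7, 6671269 to 6696450, GRCm38) had 145, 93 and 135 CPM in the shUHRF1 libraries numbered 1, 2 and 3, against 14.2, 17.3 and 14.3 CPM in the shControl libraries. Every shUHRF1 library lay far above every shControl library, and the log2 fold change was 3.03 ± 0.20 (SE) with an edgeR adjusted p of 0.000293. Peg3 (chromosome 7, 6703892 to 6730431), a zinc finger protein gene with roles in maternal behaviour and growth in mice, had 364, 492 and 304 CPM in shUHRF1, against 864, 669 and 602 CPM in shControl. The groups did not overlap (log2 fold change -0.88 ± 0.21, SE, edgeR adjusted p = 0.0194), and the call was lost without shUHRF1 replicate 3 (0.0675) or shControl replicate 1 (0.0664). Usp29 (chromosome 7, 6730578 to 6967219), named for its homology to ubiquitin-specific proteases, starts 147 bases from the start of Peg3 on the opposite strand. It had 12.9, 14 and 15.4 CPM in shUHRF1, against 23, 21.9 and 25.7 CPM in shControl, with no overlap (log2 fold change -0.74 ± 0.14, SE, edgeR adjusted p = 0.00843). Exons of Usp29 share 2582 bases with Zim3 on the other strand in GENCODE M21, and the strand setting of the counting is not given, so its level is uncertain.

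The start regions of Zim1 and Peg3 are printed because these neighbours, with starts 33981 bases apart, moved in opposite directions. Each window runs from 250 bases before to 50 bases after the annotated start, is written 5′ to 3′ on the gene's strand, and has every CpG, the dinucleotide that DNMT1 methylates, in capitals. The motif searched was CG, which reads the same on both strands.
Zim1 promoter (RefSeq, GRCm38.p6, chr7:6696383-6696682, minus strand): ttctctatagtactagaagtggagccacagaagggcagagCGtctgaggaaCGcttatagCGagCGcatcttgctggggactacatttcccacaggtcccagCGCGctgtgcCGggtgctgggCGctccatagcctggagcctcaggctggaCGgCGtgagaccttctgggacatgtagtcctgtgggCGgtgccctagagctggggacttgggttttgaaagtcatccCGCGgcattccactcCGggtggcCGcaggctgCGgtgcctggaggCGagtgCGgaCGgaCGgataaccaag
Peg3 promoter (RefSeq, GRCm38.p6, chr7:6730370-6730669, minus strand): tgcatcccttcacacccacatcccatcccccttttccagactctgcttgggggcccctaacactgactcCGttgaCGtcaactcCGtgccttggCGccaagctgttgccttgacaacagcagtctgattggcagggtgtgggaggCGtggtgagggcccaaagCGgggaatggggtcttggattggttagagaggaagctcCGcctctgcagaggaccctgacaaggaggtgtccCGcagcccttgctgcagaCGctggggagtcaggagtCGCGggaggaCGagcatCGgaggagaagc
The Zim1 window held 20 CpGs, a number reached by 26.5% of all 32851 promoter windows of that length, and the Peg3 window held 13, reached by 37.9%.

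In the Snrpn cluster of central chromosome 7, the region whose human counterpart is lost in Prader-Willi and Angelman syndromes, paternally expressed genes went different ways. Ndn and Magel2 fell, the long noncoding RNA Snhg14 rose, and neither Snrpn nor the maternally expressed Ube3a was called. Ndn (chromosome 7, 62346569 to 62350262), which encodes necdin, a growth suppressor of postmitotic neurons, had 374, 488 and 514 CPM in shUHRF1, against 768, 707 and 861 CPM in shControl. The groups were well apart, at a log2 fold change of -0.76 ± 0.15 (SE, edgeR adjusted p = 0.0104). Magel2 (chromosome 7, 62377010 to 62381640), a MAGE family gene acting in ubiquitin ligation and endosomal recycling, had 2.16, 7.42 and 4.7 CPM in shUHRF1, against 13, 14.6 and 17.1 CPM in shControl. It was lower in all 3 shUHRF1 libraries (log2 fold change -1.66 ± 0.39, SE, edgeR adjusted p = 0.0187), and the call was lost without shUHRF1 replicate 3 (0.0677) or shControl replicate 3 (0.0689). Peg12, a FRAT family gene of Wnt signalling beside them, had 12, 3 and 12 reads in shUHRF1, against 4, 4 and 6 reads in shControl, and was not tested.

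Snhg14 (chromosome 7, 59307924 to 59975759) is the host transcript of the cluster's small nucleolar RNAs, and in neurons its far end runs antisense to Ube3a and silences the paternal Ube3a copy. It had 164, 202 and 172 CPM in shUHRF1, against 78.5, 123 and 76.8 CPM in shControl. Every shUHRF1 library was above every shControl library, at a log2 fold change of 0.95 ± 0.20 (SE, edgeR adjusted p = 0.0126), and the call was lost without shControl replicate 1 (0.0596) or 3 (0.0541). Ube3a, the ubiquitin ligase gene of Angelman syndrome, had 171, 231 and 191 CPM in shUHRF1, against 205, 242 and 180.3 CPM in shControl. These ranges overlapped (log2 fold change -0.08 ± 0.16, SE, edgeR adjusted p = 0.748). Annotated exons of Snhg14 and Ube3a share 1803 bases on opposite strands, so both levels are uncertain there. Snrpn, which encodes a spliceosomal protein of neurons, had 285, 324 and 326 CPM in shUHRF1, against 373, 338 and 399 CPM in shControl. The Snrpn ranges were close without overlap, and the gene was not called (log2 fold change -0.25 ± 0.12, SE, edgeR adjusted p = 0.16). Of its 2159 exonic bases, 589 are shared with Gm38393 and 216 with Snurf on the same strand, so its count may be incomplete.

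Distal chromosome 7 holds the Kcnq1 and Igf2-H19 clusters. Cdkn1c (chromosome 7, 143458339 to 143461050), the maternally expressed gene of the cyclin-dependent kinase inhibitor p57, rose at a low level. It had 6.2, 2.47 and 2.52 CPM in shUHRF1, against 0.407, 0.647 and 0.478 CPM in shControl. Replicate 1 was highest among the shUHRF1 libraries, and all 3 lay above shControl. The log2 fold change was 2.87 ± 0.48 (SE, edgeR adjusted p = 0.00546), and 2.28 without shUHRF1 replicate 1. Cdkn1c had 7, 10 and 10 reads in the shControl libraries and passed the filter through its reads in shUHRF1. Its test was thus conditioned on the group where it is high. The pooled 232 reads in shUHRF1 and 27 in shControl gave a depth-scaled ratio of 7.68, with a 95% exact interval of 5.14 to 11.9, for counting error alone. Exons of Cdkn1c share 625 bases with a predicted gene on the other strand.

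Kcnq1ot1, a paternally expressed RNA of the same cluster that silences neighbouring genes on its own chromosome, had 113, 192 and 131 CPM in shUHRF1, against 69.4, 158 and 72.4 CPM in shControl. The ranges overlapped, and replicate 2 was highest in both groups. Kcnq1ot1 was not called in the fit without a block (log2 fold change 0.54 ± 0.34, SE, edgeR adjusted p = 0.29), and it was called higher with the replicate number as a block (0.0168). It was also called in the library pairs numbered 1 and 3 (0.0175) and without shControl replicate 2 (0.0282). Cd81, a tetraspanin gene, had 470.1, 692 and 607 CPM in shUHRF1, against 733, 711 and 707 CPM in shControl (log2 fold change -0.28 ± 0.15, SE, edgeR adjusted p = 0.214). Tssc4, whose human protein acts in assembly of spliceosomal particles, had 25.9, 24 and 28.3 CPM in shUHRF1, against 31.3, 32.7 and 37.2 CPM in shControl. The Cd81 and Tssc4 ranges did not overlap. Tssc4 was not called (log2 fold change -0.37 ± 0.13, SE, edgeR adjusted p = 0.0703) except with the replicate block (0.0446). Ascl2, a transcription factor of the placenta, had 20, 4 and 11 reads in shUHRF1, against 3, 2 and 2 reads in shControl. Phlda2, a growth restraint of the placenta, had 0, 0 and 2 reads in shUHRF1, against none in the 3 shControl libraries. Both were below the filter.

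Neither gene of the Igf2-H19 pair was called. H19, a maternally expressed noncoding RNA, had 4.27, 3.18 and 4.21 CPM in shUHRF1, against 3.83, 4.47 and 3.59 CPM in shControl. Igf2, the paternally expressed growth factor gene, had 1.44, 1.59 and 2.95 CPM in shUHRF1, against 2.96, 2.72 and 2.01 CPM in shControl. Both pairs of ranges overlapped, with log2 fold changes of -0.02 ± 0.23 for H19 and -0.36 ± 0.35 for Igf2 (SE, edgeR adjusted p = 0.957 and 0.507). Of the 5723 exonic bases of Igf2, 3596 are shared with another annotated gene on the same strand, so its count may be incomplete.

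In the Dlk1-Dio3 cluster of chromosome 12, only Dlk1 among the 5 tested genes was called. Dlk1 (109452823 to 109463336), a transmembrane ligand related to Notch ligands, had 2.42, 3.89 and 6.88 CPM in shUHRF1, against 12.2, 14.1 and 28.4 CPM in shControl. Replicate 3 was the highest library of each group, and the groups did not overlap. The log2 fold change was -2.05 ± 0.44 (SE, edgeR adjusted p = 0.0143), and the call was lost without shControl replicate 3 (0.0506) and in the library pairs numbered 1 and 3 (0.0527). The maternally expressed noncoding RNAs, which host microRNAs and small nucleolar RNAs, were abundant and overlapped between groups. Meg3 had 2139, 3206 and 2129 CPM in shUHRF1, against 2086, 2420.1 and 2159.9 CPM in shControl. Rian had 1081, 1364 and 967 CPM in shUHRF1, against 1067, 1276 and 939 CPM in shControl. Mirg had 106, 131 and 94.5 CPM in shUHRF1, against 105, 103 and 88.5 CPM in shControl. For these 3 RNAs replicate 2 was the highest shUHRF1 library, and the log2 fold changes were 0.17 ± 0.18, 0.06 ± 0.17 and 0.16 ± 0.15 (SE, edgeR adjusted p = 0.555, 0.85 and 0.48). Rtl1, a retrotransposon-derived gene needed for placental vessels in mice, had 45.1, 67.1 and 49.8 CPM in shUHRF1, against 37.9, 45.6 and 45.4 CPM in shControl (log2 fold change 0.33 ± 0.17, SE, edgeR adjusted p = 0.198). Dio3, which encodes a thyroid hormone inactivating enzyme, had 1 read in all of shUHRF1 and 3 in all of shControl.

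The Dlk1 start region is shown as above, since Dlk1 alone of its cluster was called.
Dlk1 promoter (RefSeq, GRCm38.p6, chr12:109452573-109452872, plus strand): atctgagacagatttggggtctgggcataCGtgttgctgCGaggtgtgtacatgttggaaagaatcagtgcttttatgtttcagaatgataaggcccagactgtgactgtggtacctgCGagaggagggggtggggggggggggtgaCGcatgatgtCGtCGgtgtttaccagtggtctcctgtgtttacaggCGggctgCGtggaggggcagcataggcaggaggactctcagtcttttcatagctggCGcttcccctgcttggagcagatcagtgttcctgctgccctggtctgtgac
This window held 9 CpGs, a number reached by 45.8% of all promoter windows.

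Mest and Nnat, both paternally expressed and each set beside a neighbour that was not called lower, were lower in shUHRF1. Mest (chromosome 6, 30723547 to 30748465), an alpha/beta hydrolase gene active in embryonic mesoderm and brain, had 39.9, 78.5 and 51.4 CPM in shUHRF1, against 159, 173 and 168 CPM in shControl. The shControl libraries were tightly grouped and all shUHRF1 libraries lay below them, a log2 fold change of -1.56 ± 0.23 (SE, edgeR adjusted p = 0.00347). Copg2, the maternally expressed coat protein gene that overlaps the end of Mest by 912 exonic bases on the other strand, had 106, 135 and 129.8 CPM in shUHRF1, against 128, 139 and 120 CPM in shControl. Copg2 was not called (log2 fold change -0.06 ± 0.13, SE, edgeR adjusted p = 0.762).

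Nnat (chromosome 2, 157560078 to 157562522), which encodes neuronatin, a small membrane proteolipid of developing neurons, had 144, 269 and 174 CPM in shUHRF1, against 445, 679.7 and 555 CPM in shControl. Replicate 2 was highest in both groups and the groups were far apart (log2 fold change -1.52 ± 0.25, SE, edgeR adjusted p = 0.00546). Nnat lies inside an intron of Blcap, a gene of a small conserved protein found reduced in human bladder cancer. Blcap had 121, 108 and 125 CPM in shUHRF1, against 87.6, 97 and 91.1 CPM in shControl, without overlap. Its log2 fold change was 0.36 ± 0.11 (SE, edgeR adjusted p = 0.0439). The Blcap call was lost with the replicate block (0.0507), with no low-count filter (0.142) and without any 1 library other than shUHRF1 replicate 2 (0.0761 to 0.181).

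The start regions of Mest and Nnat are printed because these genes had the largest falls among listed genes above 50 CPM in either group. For Mest, which has 3 annotated windows, the first of the 2 that hold most CpGs is given.
Mest promoter (RefSeq, GRCm38.p6, chr6:30737800-30738099, plus strand): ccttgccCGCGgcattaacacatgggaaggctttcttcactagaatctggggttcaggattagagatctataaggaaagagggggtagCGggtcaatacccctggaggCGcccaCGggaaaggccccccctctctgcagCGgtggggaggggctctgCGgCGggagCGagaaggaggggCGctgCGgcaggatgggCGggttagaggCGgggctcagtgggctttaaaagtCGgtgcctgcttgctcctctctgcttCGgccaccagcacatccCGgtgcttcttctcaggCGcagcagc
Nnat promoter (RefSeq, GRCm38.p6, chr2:157559828-157560127, plus strand): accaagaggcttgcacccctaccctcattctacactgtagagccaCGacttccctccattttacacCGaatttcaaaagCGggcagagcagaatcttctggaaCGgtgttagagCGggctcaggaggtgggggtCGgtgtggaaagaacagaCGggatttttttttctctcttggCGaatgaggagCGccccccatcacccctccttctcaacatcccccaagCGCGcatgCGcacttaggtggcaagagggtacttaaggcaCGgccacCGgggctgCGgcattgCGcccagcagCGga
Each of the Mest and Nnat windows held 17 CpGs, a number reached by 31.4% of all promoter windows.

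At the Igf2r locus on chromosome 17 the receptor gene fell modestly and the antisense RNA was not called. Igf2r (12682406 to 12769664), the maternally expressed receptor that carries IGF2 and lysosomal enzymes to lysosomes, had 154, 178 and 150.4 CPM in shUHRF1, against 243, 241 and 237 CPM in shControl. The groups were distinct (log2 fold change -0.58 ± 0.11, SE, edgeR adjusted p = 0.00847). Airn, the paternally expressed antisense RNA that silences Igf2r on its own chromosome, had 1.57, 2.94 and 1.55 CPM in shUHRF1, against 4.88, 4.08 and 3.25 CPM in shControl. Airn was lower in every shUHRF1 library and not called (log2 fold change -1.02 ± 0.33, SE, edgeR adjusted p = 0.0592), but was called lower with the replicate block (0.0293), DESeq2 (0.0354), limma-voom (0.0437) and no low-count filter (0.0338), without shUHRF1 replicate 2 (0.0162) and in the library pairs numbered 1 and 3 (0.04).

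In the Grb10-Ddc cluster on chromosome 11, Ddc rose and was almost without reads in shControl. Ddc (11814101 to 11898144) encodes aromatic L-amino acid decarboxylase, which makes dopamine and serotonin, and in mice it is known to be imprinted in the heart. It had 33, 15 and 13 reads in shUHRF1, against 1, 1 and 0 reads in shControl. The pooled reads gave a depth-scaled ratio of 27.3 with a 95% exact interval of 7.23 to 230, for counting error alone. Ddc was called higher (fitted log2 fold change 4.51 ± 0.74, SE, edgeR adjusted p = 0.00506; 3.88 without shControl replicate 3), but it did not reach the stricter low-count filter of 2 CPM. Grb10, an adaptor that restrains insulin receptor signalling and is paternally expressed in mouse neurons but maternally in most other tissues, had 213, 133 and 136 CPM in shUHRF1, against 155, 130 and 161 CPM in shControl. Its ranges overlapped, with replicate 1 highest in shUHRF1 (log2 fold change 0.11 ± 0.20, SE, edgeR adjusted p = 0.727).

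Of the single-gene loci, Impact rose and Zrsr1 fell. Impact, a regulator of the translation kinase GCN2 that is abundant in neurons, had 228, 160.3 and 174 CPM in shUHRF1, against 107, 90.2 and 70.5 CPM in shControl. All shUHRF1 libraries were higher (log2 fold change 1.07 ± 0.19, SE, edgeR adjusted p = 0.007). Zrsr1 (chromosome 11, 22972005 to 22976496), a splicing factor retrogene inside Commd1, had 28.3, 29.1 and 25.6 CPM in shUHRF1, against 37.3, 35 and 40.4 CPM in shControl. It was lower without overlap (log2 fold change -0.44 ± 0.12, SE, edgeR adjusted p = 0.0312). Its call was lost with upper-quartile factors (0.0832), in the library pairs numbered 1 and 3 (0.0529) and without shUHRF1 replicate 3, shControl replicate 1 or shControl replicate 3 (0.0825 to 0.119).

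The remaining genes were not called. Gnas, which encodes the stimulatory G protein alpha subunit and several imprinted isoforms, had 112, 160.2 and 140.4 CPM in shUHRF1, against 103, 109 and 127 CPM in shControl (log2 fold change 0.28 ± 0.15, SE, edgeR adjusted p = 0.224). Its antisense RNA Nespas differed by 0.38 ± 0.32 on the log2 scale (SE, edgeR adjusted p = 0.433), and 988 exonic bases of the pair overlap. Zdbf2, a gene controlling feeding circuits in mice, averaged 2.39 ± 0.916 CPM in shUHRF1 and 4.94 ± 1.88 CPM in shControl (SD, n = 3 each). Its log2 fold change was -1.05 ± 0.39 (SE, edgeR adjusted p = 0.0901), and it was called lower with the replicate block (0.0126). Peg10 and Sgce start 99 bases apart on opposite strands, as Usp29 and Peg3 do, and differed between the groups by 0.26 ± 0.42 and -0.03 ± 0.13 on the log2 scale (SE). Plagl1, a zinc finger regulator of other imprinted genes, had -0.04 ± 0.16, Mcts2 -0.11 ± 0.20 and Gpr1 0.35 ± 0.47 (log2 fold change, SE). Asb4 and Slc38a4 had at most 7 reads in any library.

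**Figure D2:**
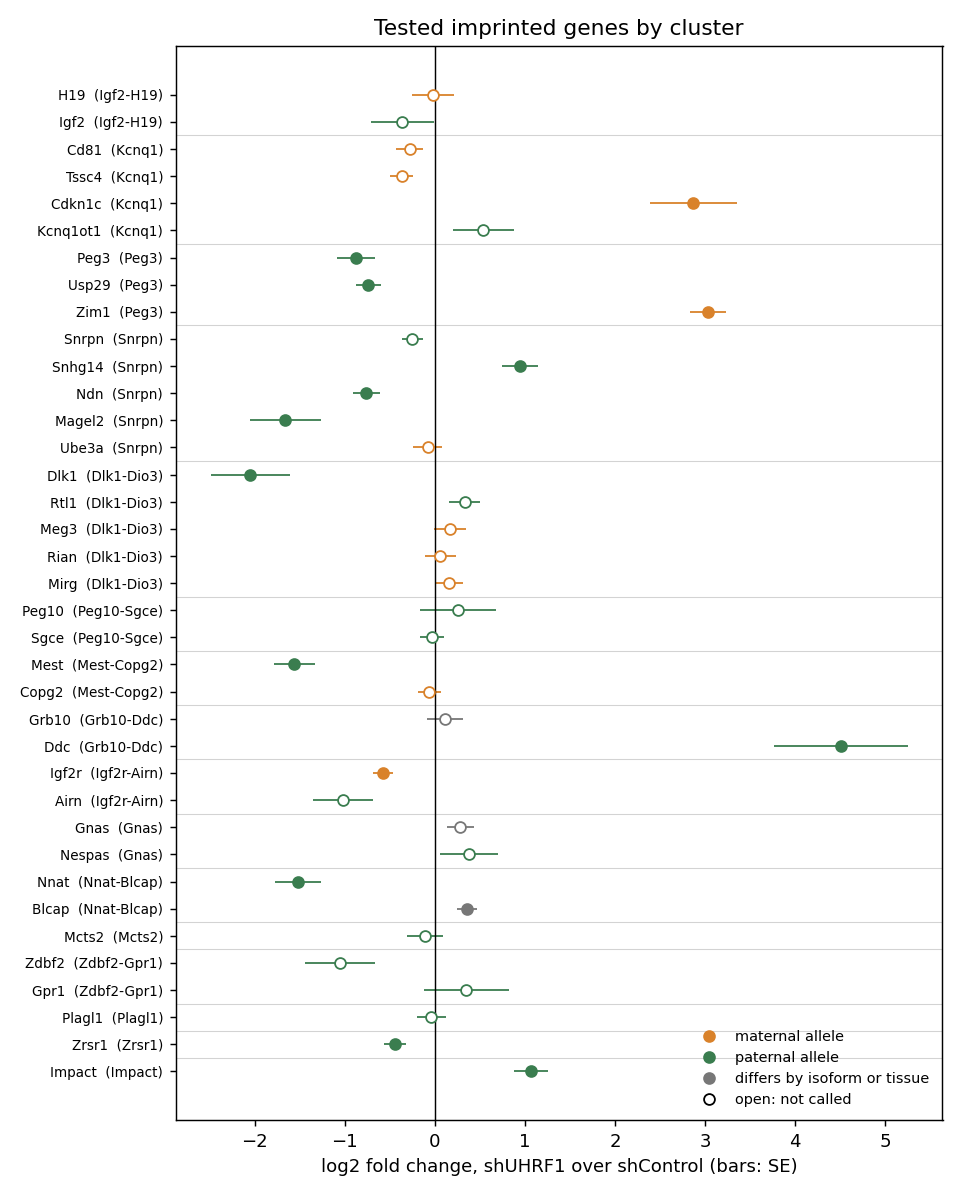
Log2 fold change of shUHRF1 over shControl with its SE for the 37 tested imprinted genes, in order of cluster; filled points were called and colours give the expressed copy. Called genes stand on both sides of 0 within the Peg3, Snrpn and Nnat-Blcap clusters.

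The genes were also grouped by the copy each is known to be expressed from, which need not hold in these cells. Of 11 tested maternally expressed genes 2 were called higher and 1 lower, with a median log2 fold change of -0.02. Of 23 tested paternally expressed genes 3 were called higher and 8 lower, with a median of -0.25. Among those called higher, maternally expressed Cdkn1c and paternally expressed Ddc passed the filter through their reads in shUHRF1. Both calls were thus conditioned on the group where the gene is high. Against the 11.6% higher and 12.4% lower among all tested genes, the paternally expressed genes called lower were 8 of 23. That share was not tested. Of these, 5 were lower without shUHRF1 replicate 3 or without shControl replicate 3, where 1149 of 15882 and 946 of 16166 tested genes were. With the replicate block 4 paternally expressed genes were higher and 10 lower, where 2380 and 2440 of all 15573 tested genes were. The summed level of the paternally expressed genes was 1872 to 2399 CPM in shUHRF1, against 3029 to 3156 CPM in shControl, a sum in which Peg3, Ndn, Snrpn and Nnat weigh most. The summed level of the maternally expressed genes was 4409.9 to 6061 CPM in shUHRF1, against 4488 to 5188 CPM in shControl, most of it Meg3 and Rian.

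Neighbours expressed from opposite copies were also compared within each library. The difference of log2(CPM + 0.5) between Zim1 and Peg3 was -1.32, -2.40 and -1.16 in shUHRF1, against -5.88, -5.23 and -5.34 in shControl. For Mest minus Copg2 it was -1.40, -0.78 and -1.33 in shUHRF1, against 0.31, 0.31 and 0.48 in shControl. For Dlk1 minus Meg3 it was -9.51, -9.51 and -8.17 in shUHRF1, against -7.36, -7.37 and -6.23 in shControl. In these 3 pairs the groups did not overlap, and the relation of the neighbours differed by 3.86, -1.54 and -2.08 on the log2 scale. These values restate single-gene changes given above and are no separate evidence. Zim1 and Peg3 were each called, while Copg2 and Meg3 had log2 fold changes of -0.06 and 0.17 and were not called. Igf2 minus H19 and Snrpn minus Ube3a overlapped, with differences of -0.30 and -0.16. Two-sided exact permutation tests gave p = 0.1 for each of the 3 pairs that did not overlap, the smallest possible value with 6 libraries (0.167 after Benjamini-Hochberg adjustment over 5 pairs). The same exact tests gave p = 0.4 for Igf2 minus H19 and 0.5 for Snrpn minus Ube3a (0.5 adjusted for both). Peg10 minus Asb4 was not computed because Asb4 was almost without reads, and other neighbours of opposite expressed copy, such as Igf2r with Airn and Cdkn1c with Kcnq1ot1, were not among the pairs compared.

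**Figure D3:**
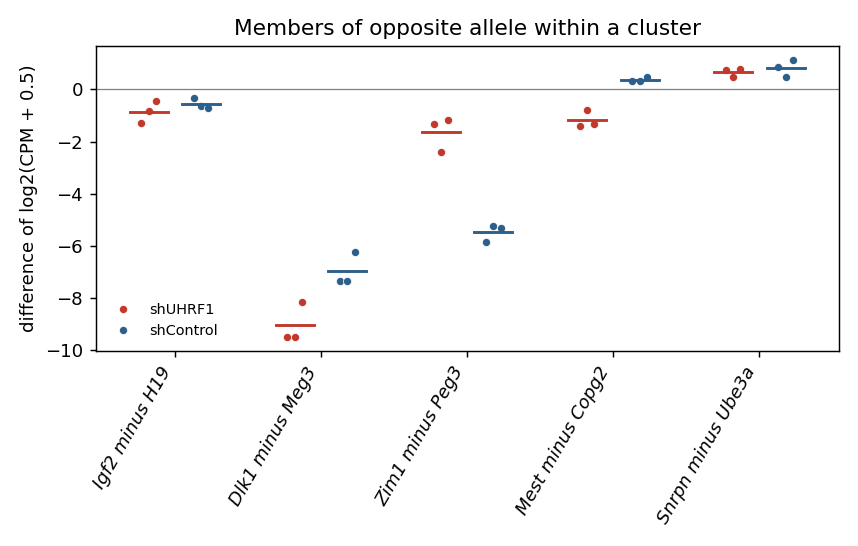
Difference of log2(CPM + 0.5) between neighbours expressed from opposite parental copies, by library; points are libraries and bars are group means, with shUHRF1 left of shControl. For Zim1 minus Peg3 the shUHRF1 libraries lie at -2.40 to -1.16 and the shControl libraries at -5.88 to -5.23.

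The 8 noncoding imprinted RNAs are shown apart because several are long nuclear transcripts. Snhg14 was called higher among them, and with the replicate block Kcnq1ot1 was called higher and Airn lower as well. The share of entries outside annotated genes was 9.97%, 17.18% and 11.08% in shUHRF1, against 8.58%, 14.13% and 8.43% in shControl. It was thus higher in the shUHRF1 library of each number, and replicate 2 was highest in both groups, as for Kcnq1ot1, Snhg14, Meg3 and Rian. Coding genes such as Nnat, Ube3a and Copg2 were also highest in replicate 2 of both groups, while Mirg, H19, Airn and Nespas were not. The part of reads outside genes in the levels of the noncoding RNAs was not tested.

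**Figure D4:**
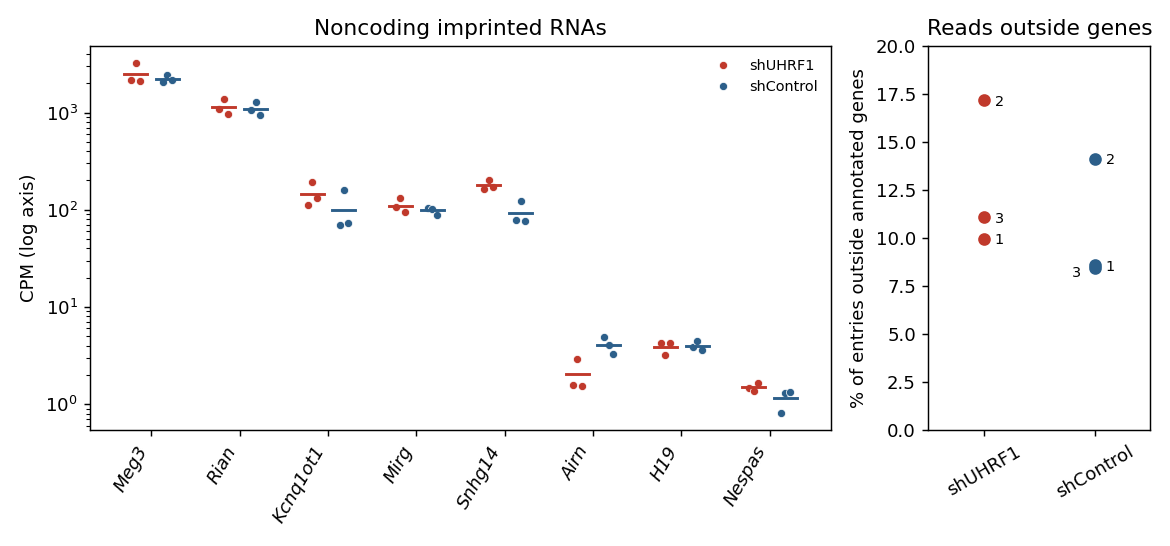
Left, CPM of the 8 noncoding imprinted RNAs in every library on a log axis, with bars for group means; right, the percentage of entries outside annotated genes, labelled by replicate number. Snhg14 and Airn separate the groups, and Kcnq1ot1 overlaps between them. Nespas separates them only narrowly, at 1.35 to 1.65 CPM in shUHRF1 and 0.813 to 1.34 CPM in shControl. Replicate 2 has the highest share outside genes in each group.

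Levels were compared between genes per length, as length-scaled TPM from summed exon length. In shUHRF1 the order at the top was Cd81 at 841 ± 168 TPM, Snrpn at 593 ± 47.2, Meg3 at 567 ± 149, Ndn at 509.7 ± 83.8 and Nnat at 439.8 ± 153 (SD, n = 3), where each of the last 4 lay within the spread of its neighbour in that order. In shControl, Nnat led at 1152 ± 273 TPM (SD, n = 3), followed by Cd81 at 934 ± 20 and Ndn at 789 ± 68.7, and Nnat and Cd81 differed by less than the spread of Nnat. Zim1 stood at 63.1 ± 13.4 TPM in shUHRF1 and 7.11 ± 1.02 TPM in shControl.

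Promoter windows from RefSeq were found for 36 of the 43 genes. The highest CpG count per gene ranged from 0 for Rian to 45 for Grb10, with a median of 17, where the median of the highest count over all 27025 genes with a window was 8. It was 2 to 20 for the 4 genes called higher with a window, 9 to 34 for the 9 called lower, and 0 to 45 for the 17 not called, so the ranges overlapped. The value of 2 belonged to Snhg14, whose RefSeq window lies outside its counted span and is also a window of Snrpn, which was not called. The letters TGCCGC, the core that the imprint-protecting protein ZFP57 binds when methylated, were searched on both strands, and they contain a CpG counted above. They stood in a window of 11 of the 36 genes, and in a window of 13.1% of all genes, or 11.6% of all windows. The 11 were 1 of the 4 genes called higher (Zim1), 2 of the 9 called lower (Mest and Nnat) and 8 of the 17 not called. Genes with several windows have more chances of a match. A match is a description of the sequence only.

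Genes that set, hold or read imprints were followed as a separate list. Of 24 listed, 18 were tested, 1 was called higher and 1 lower, where 24.0% of all tested genes were called. With the replicate block 1 was higher and 2 were lower, where 4820 of all 15573 tested genes were called. Tet2, a methylcytosine oxidase, had 91.9, 66.2 and 75.4 CPM in shUHRF1, against 24.9, 37.1 and 28.4 CPM in shControl (log2 fold change 1.37 ± 0.19, SE, edgeR adjusted p = 0.00252). The Tet2 ranges did not overlap. Dnmt1 had 66.7, 68.4 and 61 CPM in shUHRF1, against 97.3, 71.1 and 74.3 CPM in shControl, and was not called (log2 fold change -0.31 ± 0.14, SE, edgeR adjusted p = 0.156). Zfp57 had a log2 fold change of -0.08 ± 0.11 (SE).

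A second list held imprinted genes outside the 43, many of them known to be imprinted in placenta or a few tissues only. Of 37 found, 22 were tested, 4 were called higher and 5 lower, with a median log2 fold change of -0.18, where 24.0% of all tested genes were called. Dcn, 1 of those called higher, is also a listed fibroblast and mesenchyme marker and is counted in both lists. With the replicate block 4 of this list were higher and 8 lower, where 2380 and 2440 of all 15573 tested genes were. The 3 added by the block, named after their values were seen, were Inpp5f, Nap1l5 and Pon2 (edgeR adjusted p = 0.0369, 0.00583 and 0.0267). Osbpl5, a lipid transfer protein gene that lies past Phlda2 on chromosome 7, had 15.8, 19.1 and 17.2 CPM in shUHRF1, against 71.8, 65 and 70.8 CPM in shControl (log2 fold change -2.00 ± 0.12, SE, edgeR adjusted p = 0.000268). Wars, the tryptophanyl-tRNA synthetase gene, had 105, 96 and 119 CPM in shUHRF1, against 224, 261 and 260.1 CPM in shControl (log2 fold change -1.22 ± 0.12, SE, edgeR adjusted p = 0.00102). Both fell without overlap. Htr2a, a serotonin receptor gene, averaged 3.26 ± 0.416 CPM in shUHRF1 and 0.321 ± 0.14 CPM in shControl (SD, n = 3 each). Kcnq1, the potassium channel gene within whose span Kcnq1ot1 lies on the other strand, averaged 1.67 ± 0.351 CPM in shUHRF1 and 0.206 ± 0.0229 CPM in shControl (SD, n = 3 each), and 121 exonic bases of the pair overlap. Htr2a and Kcnq1 were called higher (log2 fold change 3.33 ± 0.37 and 2.97 ± 0.38, SE, edgeR adjusted p = 0.00142 and 0.00202). Htr2a had 3, 7 and 7 reads and Kcnq1 4, 3 and 4 reads in the shControl libraries, so both passed the filter through shUHRF1 and had to differ to be tested, and Kcnq1 did not reach the stricter filter.

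Markers of other cell types moved in the same libraries. Several, such as Lum and Fap with at most 3 reads in any shControl library, passed the filter only through shUHRF1 and had to differ, so the counts of tested markers lean toward rises. Of all 15573 tested genes 11.6% were called higher and 12.4% lower, and with the replicate block 2380 were higher and 2440 lower. Of 15 neuronal markers 1, Tubb3, was called lower, a call lost without shUHRF1 replicate 3, shControl replicate 1 or shControl replicate 3, and with the replicate block 3 were lower (Tubb3, Rbfox3 and Pou4f1) and 1, Elavl4, was higher. Their summed level was 21147 to 27036 CPM in shUHRF1, against 25636 to 30826 CPM in shControl. Of 13 tested of 15 fibroblast and mesenchyme markers 12 were called higher, and the list summed to 869 to 1197 CPM in shUHRF1, against 587 to 689.6 CPM in shControl, most of it Vim. Of 10 tested of 12 Schwann cell and satellite glia markers 9 were called higher, with sums of 63.4 to 303 CPM in shUHRF1, against 222 to 269 CPM in shControl, most of it S100b. Of 6 tested of 8 macrophage markers 3 were called higher (4 with the block), with sums of 14.5 to 34.7 CPM in shUHRF1, against 5.18 to 10.6 CPM in shControl. Of 4 tested muscle markers 1 was called higher (2 with the block), and of 4 tested erythroid markers 0 were called, 0 with an unadjusted edgeR p below 0.05 and 1 with the replicate block. Every listed marker had at least 1 read in each group. The part of these cell types in the imprinted gene levels was not tested.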

How the data were processed

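RNA from 6 libraries was measured as 1 deposited table of raw whole-number read counts per library. Per the labels' protocols, ribosomal RNA was depleted from total RNA and cDNA made with a SMARTer kit. The submitters' processing notes name FastQC, STAR, HTSeq, DESeq2 and the mm10 build. No tool version, strand setting or annotation release is given in the sources used here. Of 47643 gene identifiers, 47224 matched GENCODE release M21 (GRCm38, the assembly of mm10), which gave symbols, coordinates and exon lengths. The 5 summary lines were left out of library sizes. Within the deposited entries they held 8.43% to 17.18% outside genes, 2.12% to 2.27% ambiguous and 30.50% to 37.28% not uniquely aligned.

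From the counts, edgeR 4.0.16 in R 4.3.3 was run with filterByExpr, TMM factors and its two-sided quasi-likelihood test on all 6 libraries, with Benjamini-Hochberg adjustment and calls at adjusted p below 0.05. SEs were derived from the F statistic. The script was tested on simulated data. Same-numbered libraries deviated together (correlations of 0.32, 0.40 and 0.40), so a fit with that number as a block is given where it changes the call of a gene followed here or the count of a list. The pairing is inferred from these correlations. Alternatives were DESeq2 1.42.0, limma-voom (limma 3.58.1), RLE and upper-quartile factors, no filter, a stricter filter (2 CPM or more in 3 or more libraries), the block, each library left out, and library pairs 1 and 3. Intervals of pooled reads and permutation tests used SciPy 1.17.1. Promoter windows came from RefSeq (GRCm38.p6).

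The genes and lists were chosen with earlier results of these data known. Library values are given for called genes, genes of at least 50 CPM in either group and uncalled genes sharing a cluster with a called gene, and for H19 and Igf2 in addition. From the 2 other imprinting lists up to 4 called genes of smallest p are named, with Uhrf1 and Dnmt1 always, and Zfp57, named after its values were seen. Some genes named by this rule are not reported here, and counts over lists include them.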

Additional observations from a re-analysis of the deposited data

How the results depend on the processing

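The 15 called imprinted genes kept their direction under every alternative that tested them. Of the 43, 14 to 18 were called under the other normalizations, tools and filters and the replicate block, with 18 under the block (6 higher, 12 lower), where Tssc4, Kcnq1ot1, Airn and Zdbf2 were called and Blcap was not and no other call among the 43 changed, and 16 in library pairs 1 and 3. Of all tested genes, 4820 of 15573 were called under the block and 3071 of 15839 in library pairs 1 and 3. Leaving out 1 library gave 10 to 17 of the 43 called. It gave 3 to 4 maternally and 7 to 12 paternally expressed genes called, 8 to 11 of the other imprinted genes, 2 to 3 of the imprint maintenance genes, and 1768 to 3888 of all genes, with 2171 without shUHRF1 replicate 3, 2018 without shControl replicate 1 and 1768 without shControl replicate 3. Without shControl replicate 3, 7 paternally expressed genes were called. DESeq2 called 4 imprint maintenance genes where edgeR called 2. Under upper-quartile factors all tested genes had a median log2 fold change of 0.142, against 0.017 with TMM factors. Signs turned for uncalled genes only. With upper-quartile factors the log2 fold change was 0.10 for H19, 0.04 for Ube3a, 0.10 for Sgce, 0.06 for Copg2, 0.01 for Mcts2 and 0.08 for Plagl1. With the stricter filter it was 0.02 for H19, 0.02 for Sgce and 0.00 for Plagl1. In library pairs 1 and 3 it was 0.19 for H19, 0.03 for Sgce, -0.02 for Gpr1 and 0.06 for Plagl1. With 1 library left out it ranged from -0.10 to 0.08 for H19, -0.23 to 0.02 for Ube3a, -0.08 to 0.26 for Meg3, -0.12 to 0.16 for Rian, -0.01 to 0.25 for Mirg, -0.37 to 0.54 for Peg10, -0.09 to 0.01 for Sgce, -0.16 to 0.03 for Copg2, -0.15 to 0.20 for Grb10 and -0.18 to 0.10 for Plagl1. The cause of these changes was not tested. Depth limits Uhrf1, Ddc, Cdkn1c and the 6 genes below the filter.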

Other observations

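Further called genes of the second imprinted list separated the groups, as 44.0% of all tested genes did. These genes are already counted in the calls of that list, and they were chosen after their values were seen. Begain, a gene of a synaptic scaffold-associated protein that lies before Dlk1 on chromosome 12, had 19.7, 26.8 and 24.1 CPM in shUHRF1, against 55.1, 36.1 and 50.5 CPM in shControl. It fell without overlap (log2 fold change -1.01 ± 0.19, SE, edgeR adjusted p = 0.00846), as did Wars further before it. Beyond Cdkn1c on chromosome 7, the histone chaperone gene Nap1l4 had 87.3, 106 and 97.5 CPM in shUHRF1, against 137, 148 and 154 CPM in shControl (log2 fold change -0.60 ± 0.11, SE, edgeR adjusted p = 0.00911). Rasgrf1, a paternally expressed Ras exchange factor gene on chromosome 9, had 112, 155 and 127 CPM in shUHRF1, against 75.2, 74.6 and 76.1 CPM in shControl. It rose without overlap (log2 fold change 0.80 ± 0.13, SE, edgeR adjusted p = 0.00565).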
